A study of Homo sapiens with 6 samples.

Results

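Clones of H9, an established human embryonic stem cell line, that carried a phosphomimetic H2A.X (gamma-ON) were compared with clones that carried an H2A.X that cannot be phosphorylated at the same site (gamma-OFF). The comparison took the 2 gamma-ON and the 2 gamma-OFF arrays out of 6 by their descriptions, and covered all 14884 genes with a named array row. Gamma-ON clones were made with the vector pHIV-EF1α-H2A.X-IRES-eGFP carrying S139E, in which a glutamate takes the place of the serine. Gamma-OFF clones were made with the same vector carrying, as its label was read here, alanines at both sites, T136A and S139A. The 2 remaining arrays (CTRL) came from clones with the vector that encodes eGFP and no H2A.X. They entered the fit for the spread between replicates and are given here as a reference level. In all groups, eGFP and the surface antigen TRA 1-60 were used to sort transduced cells, single colonies were expanded on mouse embryonic fibroblast feeders, and the feeder-conditioned medium held 8 ng/ml bFGF. Whether replicates 1 and 2 of a group were different clones or cultures of 1 clone is not given in the labels, and the p-values therefore rest on a spread that may be technical. Both groups carried an H2A.X transgene, an unsubstituted H2A.X was not among the vectors, and an effect of the substitutions cannot be told apart from one of the clone.

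H2A.X is a variant of the core histone H2A that is spread through the chromatin. Kinases of the DNA damage response (ATM, ATR and DNA-PK) phosphorylate a serine near its carboxyl end around double-strand breaks, and this form, called γH2A.X, anchors repair and checkpoint proteins such as MDC1. Embryonic stem cells carry much of this mark also without added damage. The series title names a part of γH2A.X in how such cells renew and differentiate. The transcript of H2AX, native or from the vector, was not analysed here, since no array row bore its name.

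The 4 arrays were close to each other but the gamma-OFF pair was the less alike. Pearson's r across genes, a description since genes are not replicates, was 0.9936 within the gamma-ON pair and 0.9862 within the gamma-OFF pair. Between the groups it was 0.9873 for gamma-ON replicate 2 with gamma-OFF replicate 1, and 0.9824, 0.9743 and 0.9686 for the other pairs, the first above and the others below the value within gamma-OFF. The median absolute difference between replicates was 0.118 log2 units in gamma-ON and 0.176 in gamma-OFF, and 26 and 51 genes differed more than 2-fold within the pair. The spread of levels over genes was also narrowest in gamma-OFF, with an SD of 1.644 on replicate 2 and 1.703 on replicate 1, against 1.764 and 1.806 in gamma-ON. In bulk RNA such as this, fewer cells of a type and less RNA per cell cannot be told apart.

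Pluripotency genes were at similar levels in both groups, which by itself does not check the cell type named in the labels. The median level of all genes was 7.119. SOX2 and POU5F1 lay above that level on the gamma-ON and gamma-OFF arrays, and NANOG lay near it. SOX2 stood at 11.73 and 11.57 (log2 level) in gamma-ON and at 11.64 and 11.60 in gamma-OFF, with a difference of 0.03 (SE 0.12, adjusted p = 0.883) that became -0.29 with equal medians and SDs. POU5F1, which encodes OCT4 and has near-identical pseudogene copies, stood at 7.88 and 8.05 against 7.59 and 7.64 (difference 0.35, SE 0.14, adjusted p = 0.124). NANOG stood at 6.81 and 6.65 against 6.65 and 7.29 (difference -0.24, SE 0.22, adjusted p = 0.448), and its groups overlapped. Of 29 measured pluripotency genes, 2 were higher in gamma-ON (GDF3 and GAL), 1 was lower (GRPR) and 26 did not pass the test. Among all genes, 3.98% were higher and 2.02% lower. The other row of GRPR differed by 0.69, so its rows disagree. With the mean of all rows of a gene, 0 pluripotency genes were lower. The median difference of the 29 genes was -0.029 with the deposited values and -0.2846 after each array was given the same median and SD. The mean level over this list was 9.80 and 9.74 on the gamma-ON arrays and 9.76 and 9.76 on the gamma-OFF arrays. The GAL call (0.60, adjusted p = 0.045) was lost without gamma-ON replicate 1 (adjusted p = 0.306), gamma-ON replicate 2 (0.0777), gamma-OFF replicate 2 (0.11) or either CTRL array (0.0803). Of the fibroblast markers that feeder cells could add, 5 genes were measured. LUM was higher in gamma-ON, while DCN (0.40), THY1 (0.25), S100A4 (0.08) and TAGLN (-0.07) did not pass the test. Their mean level was 7.69 and 7.63 in gamma-ON and 7.38 and 7.24 in gamma-OFF, and its part in the results was not tested. LUM lost its call without gamma-ON replicate 1 (adjusted p = 0.194), gamma-ON replicate 2 (0.104) or gamma-OFF replicate 2 (0.11).

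At an adjusted p under 0.05 (limma with Benjamini-Hochberg adjustment over all genes), 892 of 14884 genes differed between gamma-ON and gamma-OFF, which is 5.99% of genes. Of these, 592 (3.98%) were higher and 300 (2.02%) were lower in gamma-ON. A change of at least 2-fold was reached by 98 of them (0.658%), 84 higher and 14 lower, and one of at least 4-fold by 15 higher genes and 1 lower gene. The groups did not overlap for any called gene, but the same held for 63.3% of all genes. The median difference over all genes was 0.02 log2 units. With quantile normalization or with equal medians and SDs, the share of calls that were higher in gamma-ON was 59.06% and 59.14%, against 66.37% with the deposited values. The counts depended on single arrays: 49 genes were called without gamma-ON replicate 1, 67 without gamma-ON replicate 2, 150 without gamma-OFF replicate 2, 275 without either CTRL array and 4061 without gamma-OFF replicate 1. Whichever array was left out, 42 genes were called, 38 of them higher and 4 lower in gamma-ON.

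**Figure D1:**
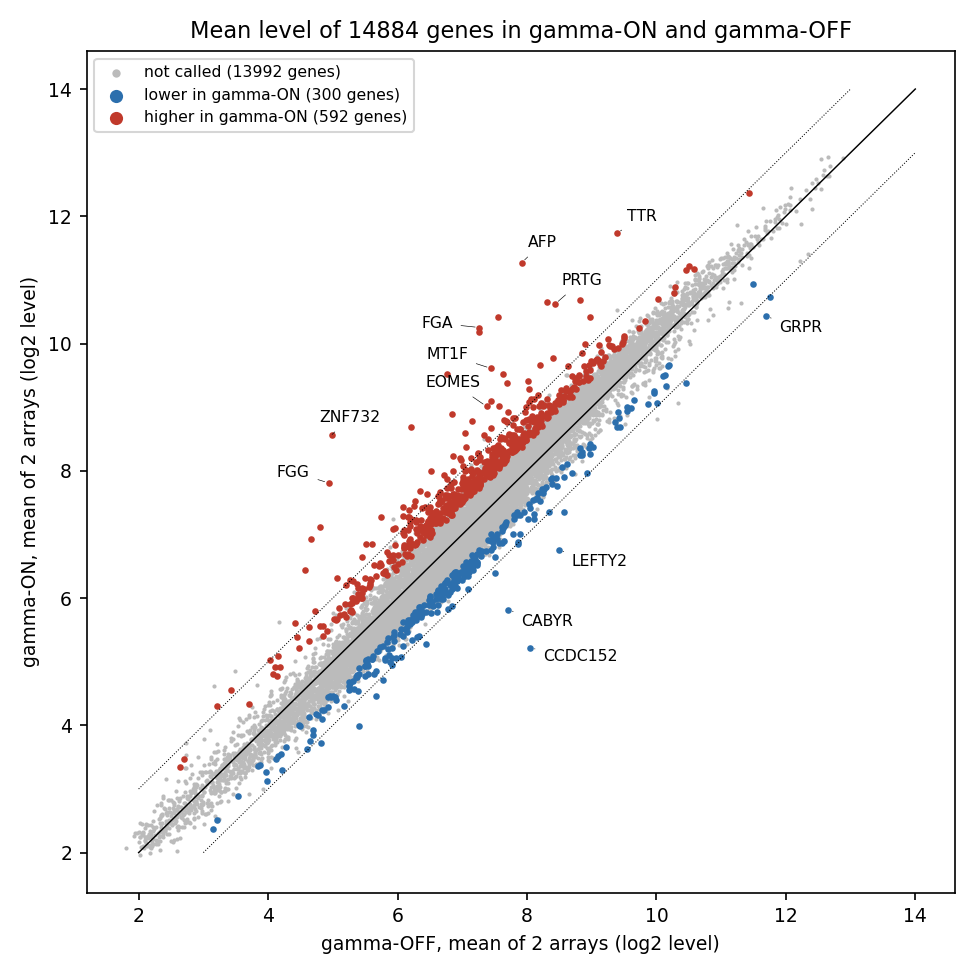
Mean log2 level of each gene on the 2 gamma-ON arrays (y axis) against the 2 gamma-OFF arrays (x axis), 1 point per gene; red points are the 592 genes called higher in gamma-ON, blue the 300 called lower, grey those not called. The solid line marks equal levels and the dotted lines a 2-fold difference. ZNF732 and then AFP lie farthest above the line, followed by other plasma protein genes, and CCDC152 lies farthest below it.

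Genes of the fetal liver and yolk sac, most but not all of them for secreted proteins, were the most changed of the 32 gene lists. AFP, which encodes alpha-fetoprotein, the main plasma protein of the embryo, stood at 11.17 and 11.37 (log2 level) in gamma-ON and at 8.08 and 7.76 in gamma-OFF, with 6.93 and 6.86 in CTRL. Both gamma-ON arrays lay more than 3 log2 units above both gamma-OFF arrays. The means were 11.27 ± 0.14 and 7.92 ± 0.22 (SD, n = 2), a difference of 3.35 (SE 0.14, adjusted p = 9.15e-06), or 10.2-fold. AFP lies at chr4:73436221-73456174 (GRCh38.p14). The 3 chains of fibrinogen, the clotting protein, are encoded side by side on chromosome 4, and all were higher in gamma-ON. FGA stood at 10.19 and 10.32 against 7.46 and 7.07, a 7.94-fold difference (2.99, SE 0.17, adjusted p = 5.83e-05). FGB stood at 10.14 and 10.22 against 7.31 and 7.21, a 7.58-fold difference (2.92, SE 0.16). FGG stood at 7.79 and 7.83 against 4.93 and 4.94, a 7.33-fold difference (2.87, SE 0.11, adjusted p = 7.25e-06).

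Both AFP and FGA hold, before their start site, a match to the core letters bound by HNF1, a homeobox factor of liver and yolk sac genes. They are shown because no other gene of this group with a window had the match. The windows are the 250 bases before the RefSeq start (GRCh38.p14), in the direction of the gene, with the match in capitals. AFP is on the plus strand, at chr4:73435971-73436220, and FGA on the minus strand, at chr4:154590743-154590992.
AFP: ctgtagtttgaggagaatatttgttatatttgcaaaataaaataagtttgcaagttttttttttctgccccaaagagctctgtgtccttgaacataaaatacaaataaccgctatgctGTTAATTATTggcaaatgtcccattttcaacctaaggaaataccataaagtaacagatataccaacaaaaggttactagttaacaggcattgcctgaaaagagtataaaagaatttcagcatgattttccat
FGA: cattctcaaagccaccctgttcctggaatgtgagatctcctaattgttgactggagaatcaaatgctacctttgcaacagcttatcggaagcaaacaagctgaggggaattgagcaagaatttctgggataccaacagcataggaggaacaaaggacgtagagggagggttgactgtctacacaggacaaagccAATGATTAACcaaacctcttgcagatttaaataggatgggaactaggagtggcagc
The letters searched, on both strands, were GTTAAT, then any base, then ATT. The match begins 132 bases before the start of AFP and 56 bases before that of FGA. It was present in 2 of the 14 called genes of this list with a window, in 0 of the 5 that were not called, and in 80 of 27305 windows of all genes (0.293%). The motif was chosen with the results known, and a match is a description of these letters only.

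The apolipoproteins and carriers of the same group followed, with the same arrays high. APOB, the structural protein of low density lipoprotein, stood at 10.44 and 10.40 in gamma-ON against 7.46 and 7.65 in gamma-OFF, a 7.3-fold difference (2.87, SE 0.16, adjusted p = 5.83e-05). AHSG, the gene of fetuin-A, stood at 9.49 and 9.56 against 6.80 and 6.72 (2.76, SE 0.17). TTR, the carrier of thyroid hormone and retinol binding protein, stood at 11.66 and 11.80 against 9.30 and 9.48 (2.34, SE 0.17, adjusted p = 0.000262). Here CTRL lay between the groups, at 10.60 and 10.11. APOA2, an apolipoprotein of high density lipoprotein, differed by 2.35 (SE 0.17), and MTTP, which loads lipid onto APOB, by 1.35 (SE 0.15, adjusted p = 0.00306). VTN, which encodes the adhesive plasma protein vitronectin, differed by 1.69 (SE 0.15) and APOC3 by 1.22 (SE 0.13). In all, 17 of the 23 measured genes of this group were higher in gamma-ON and 0 lower, against 3.98% higher among all genes. Their median difference was 1.225, against 0.02 over all genes. The remaining called members were GSTA2 (2.49), APOC1 (0.98), CUBN (0.97), APOM (0.73), APOA4 (0.63) and GSTA1 (0.56). GSTA1 and GSTA2 are near-identical paralogs, so their rows may share signal.

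Not every gene of the fetal liver differed. ALB, which encodes albumin, stood at 6.20 and 6.11 in gamma-ON and at 5.98 and 5.90 in gamma-OFF, a difference of 0.22 with an adjusted p of 0.21. APOA1 (0.45), TF (0.15), APOH (0.01), APOE (-0.13) and AMBP (-0.18) did not pass the test either. The count of 17 higher genes was 12 without either gamma-ON array, 17 without gamma-OFF replicate 1, 13 without gamma-OFF replicate 2 and 15 without either CTRL array. In the same fits, 0.275% of all genes were higher without gamma-ON replicate 1, 0.363% without gamma-ON replicate 2, 17.1% without gamma-OFF replicate 1, 0.779% without gamma-OFF replicate 2 and 1.39% without either CTRL array. CTRL lay nearer gamma-OFF for 15 of the 17 called genes. It lay below both groups for 9 of the 17 and between them for 8. CTRL lay nearer gamma-ON for 63.7% of all genes and for 66.4% of all genes called higher. Other genes for secreted or surface proteins of liver and yolk sac stood outside the list and were named after their values were seen: PLG (plasminogen, 1.25), ITIH2 (1.21), HABP2 (1.37) and DPP4 (1.46) were higher in gamma-ON whichever array was left out. PLG shares sequence with the copy PLGLA, so its row is uncertain.

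**Figure D2:**
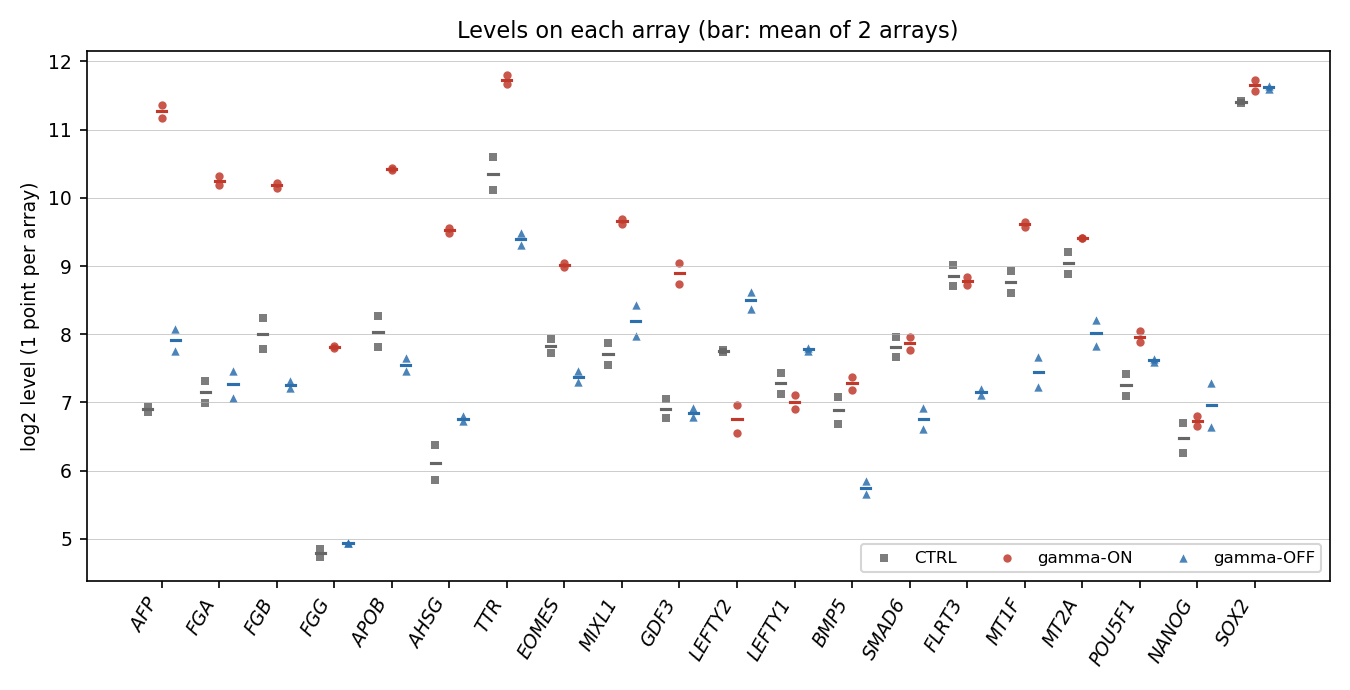
Log2 level of 20 genes on each of the 6 arrays (y axis), with CTRL as grey squares, gamma-ON as red circles and gamma-OFF as blue triangles; short bars are the mean of 2 arrays. The liver and yolk sac genes on the left are well separated between gamma-ON and gamma-OFF, LEFTY1 and LEFTY2 are ordered the other way, and POU5F1, NANOG and SOX2 on the right did not pass the test.

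The Nodal pathway holds human embryonic stem cells in the pluripotent state and, at higher activity, directs them to mesoderm and endoderm. Its ligands GDF3 and NODAL and its inhibitors LEFTY1 and LEFTY2 stood on opposite sides. GDF3, a ligand of the TGF-beta family, stood at 9.05 and 8.73 in gamma-ON and at 6.91 and 6.79 in gamma-OFF, a 4.12-fold difference (2.04, SE 0.15, adjusted p = 0.000287). NODAL stood at 8.58 and 8.62 against 8.15 and 8.13, a smaller difference of 0.47 (SE 0.11, adjusted p = 0.0477), and its other row differed by -0.06. LEFTY2, which encodes an inhibitor that blocks Nodal signalling and is itself a target of it, stood at 6.96 and 6.54 in gamma-ON and at 8.61 and 8.38 in gamma-OFF. CTRL lay between, at 7.76 and 7.74. LEFTY2 was thus 3.35-fold higher in gamma-OFF (difference -1.74, SE 0.16, adjusted p = 0.000995). LEFTY1, the paralog beside it on chromosome 1, stood at 7.10 and 6.91 against 7.79 and 7.76 (-0.77, SE 0.14, adjusted p = 0.0254). The rows of these near-identical genes may share signal.

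FST, which encodes the activin binding protein follistatin, was higher in gamma-ON by 1.02 (SE 0.14, adjusted p = 0.00843), and the inhibitory SMAD gene SMAD7 by 0.52 (SE 0.12). The signal transducers SMAD2 (0.17) and SMAD4 (0.08) and the nuclear partner FOXH1 (-0.16) did not pass the test, and with quantile normalization SMAD2 and SMAD4 had the opposite sign. Of 13 measured Nodal and activin genes, 4 were higher and 2 lower in gamma-ON, against 3.98% and 2.02% of all genes. Their median of 0.08 became -0.04 when arrays were given equal medians and SDs. GDF3 and LEFTY2 were called whichever array was left out. LEFTY1 lost its call without gamma-ON replicate 1 (adjusted p = 0.142), gamma-ON replicate 2 (0.106) or gamma-OFF replicate 2 (0.0883). FST lost its call without gamma-ON replicate 1 (0.116) or gamma-ON replicate 2 (0.0627). NODAL and SMAD7 kept theirs only without gamma-OFF replicate 1, with adjusted p-values of up to 0.282 and 0.302 without gamma-ON replicate 1.

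Genes that mark the primitive streak, the stage at which mesoderm and endoderm arise, were higher in gamma-ON for a few members. EOMES, a T-box factor of the streak and early endoderm, stood at 9.04 and 8.99 in gamma-ON and at 7.29 and 7.46 in gamma-OFF, a 3.11-fold difference (1.64, SE 0.13, adjusted p = 0.000342). MIXL1, a homeobox factor of the same cells, stood at 9.69 and 9.62 against 7.97 and 8.43 (1.46, SE 0.17, adjusted p = 0.0041). APLNR, the apelin receptor gene of early mesoderm, stood at 8.81 and 8.37 against 7.16 and 6.93 (1.54, SE 0.17). KDR, a VEGF receptor gene, differed by 0.71 (SE 0.12, adjusted p = 0.0189) and LUM, also a fibroblast marker, by 1.10 (SE 0.20). TBXT, CER1 and WNT3 were listed but had no named row, and GSC (-0.06), TBX6 (-0.05) and MESP1 (-0.25) did not pass the test. With LUM counted, 5 of 16 measured members were higher and 0 lower, against 3.98% and 2.02% of all genes. The list median was 0.07. CTRL lay nearer gamma-OFF for all 5. EOMES and APLNR were called whichever array was left out, while MIXL1 was called in 5 of those 6 fits and KDR in 3. The count stayed 5 with the 4 gamma-ON and gamma-OFF arrays alone, where 1.39% of all genes were higher. It was smaller without gamma-ON replicate 1, gamma-ON replicate 2 or gamma-OFF replicate 2.

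Endoderm and heart mesoderm genes gave a similar picture of a few members, against 3.98% higher and 2.02% lower among all genes. FLRT3, which encodes a surface protein that binds FGF receptors and guidance receptors, stood at 8.84 and 8.72 in gamma-ON and at 7.19 and 7.11 in gamma-OFF (1.63, SE 0.13, adjusted p = 0.000549). CTRL stood with gamma-ON, at 9.01 and 8.71. GATA6, a factor of early endoderm, differed by 0.86 (SE 0.14, adjusted p = 0.0167) and the receptor gene LGR5 by 0.58 (adjusted p = 0.0494), whereas SOX17 (0.09) and FOXA2 (0.14) did not pass the test. That made 3 of 14 endoderm genes higher and 0 lower. Among 12 genes of heart mesoderm 4 were higher and 0 lower: TBX3 (1.19, SE 0.15), HAND1 (1.16, SE 0.15), ISL1 (0.72, SE 0.13) and BMP4 (0.64, SE 0.12). The heart genes HCN4 (-0.34), NKX2-5 (-0.41), GATA5 (-0.42) and HAND2 (-0.47) stood on the negative side and did not pass the test. The other row of ISL1 differed by -0.39, so its rows disagree. HAND1 had an adjusted p of 0.0621 without gamma-ON replicate 2. TBX3 had one of 0.0919 without gamma-ON replicate 1 and of 0.0621 without gamma-ON replicate 2. Of the 6 fits with an array left out, GATA6 was called in 4, ISL1 in 3 and LGR5 in 0. With the 4 gamma-ON and gamma-OFF arrays alone, 2 endoderm and 3 heart mesoderm genes were called higher. The BMP4 call was lost there (adjusted p = 0.053). Both counts were smaller without either gamma-ON array. Without gamma-OFF replicate 1, some of the genes called higher were not those named here.

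BMP signalling drives mesoderm, amnion and trophoblast fates, and induces its own inhibitors. Some of its ligands and some of its inhibitors were higher in gamma-ON. Among the ligands, BMP5 stood at 7.38 and 7.18 in gamma-ON and at 5.84 and 5.66 in gamma-OFF, a 2.89-fold difference (1.53, SE 0.16, adjusted p = 0.00238). BMP2 differed by 0.71 (SE 0.14) and BMP4 by 0.64, while BMP6 (0.09) and BMP7 (0.02) did not pass the test. BMP4 lost its call with the 4 gamma-ON and gamma-OFF arrays alone (adjusted p = 0.053). BAMBI, which encodes a decoy receptor induced by BMP, stood at 9.85 and 9.71 against 8.47 and 8.33 (1.38, SE 0.13, adjusted p = 0.0014). SMAD6, an inhibitory SMAD and target of the pathway, stood at 7.96 and 7.76 against 6.61 and 6.91 (1.10, SE 0.16, adjusted p = 0.00986). CTRL, at 7.96 and 7.67, stood with gamma-ON for SMAD6. The secreted inhibitors GREM1 (0.29), NOG (0.20) and CHRD (-0.09) did not pass the test. GATA3, a factor of trophoblast and amnion, differed by 0.93 (SE 0.13). CTRL lay nearer gamma-ON for 6 of the 7 members called higher, against 66.4% of all genes called higher. Of 16 measured members those 7 were higher and 0 lower, against 3.98% and 2.02% of all genes, and the list median was 0.37. The count was 2 without either gamma-ON array, 7 without gamma-OFF replicate 1, 4 without gamma-OFF replicate 2 and 5 without either CTRL array. BMP5 and BAMBI were called whichever array was left out, while SMAD6 had an adjusted p of 0.136 without gamma-ON replicate 1 and of 0.0608 without gamma-ON replicate 2. Of 12 trophoblast and amnion genes 3 were higher and 0 lower, GATA3, HEY1 (0.71) and VTCN1 (0.60), and none was called without either gamma-ON array, 1 without gamma-OFF replicate 2 and 2 without either CTRL array.

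The FGF pathway, which the bFGF of the medium feeds, switches on its own feedback inhibitors. DUSP6, the phosphatase gene for ERK, stood at 9.09 and 8.92 in gamma-ON and at 8.37 and 7.81 in gamma-OFF (0.92, SE 0.18, adjusted p = 0.0317). The inhibitor SPRY2 differed by 0.81 (SE 0.14), the inhibitor IL17RD by 0.77 (SE 0.15) and the ETS factor ETV5 by 0.72 (SE 0.12). With FLRT3, 5 of 19 measured members were higher and 0 lower, against 3.98% and 2.02% of all genes, and the list median was 0.36. CTRL lay nearer gamma-ON for all 5, against 66.4% of all genes called higher. FLRT3 alone was called without either gamma-ON array. Of these 5, FLRT3 alone also kept its call without gamma-OFF replicate 2. The other members called in that fit were not called with all arrays. Without either CTRL array, FLRT3, SPRY2 and ETV5 kept their calls, and DUSP6 and IL17RD lost theirs. The WNT list had 5 of 17 members higher and 1 lower, against the same shares of all genes. LEF1, a transcription factor of the pathway, differed by 1.01 (SE 0.23, adjusted p = 0.0429), and the inhibitors DKK1, DKK4 and RNF43 by 0.71, 0.68 and 0.57, beside LGR5. FZD7, a receptor gene, was lower, at 9.56 and 9.41 in gamma-ON against 10.01 and 10.21 in gamma-OFF (-0.63, SE 0.12). It was called in only 1 of the 6 fits with an array left out. AXIN2, a common readout of the pathway, stood at 0.45 (adjusted p = 0.128). None of the WNT members higher in gamma-ON was called without gamma-ON replicate 1, gamma-ON replicate 2 or gamma-OFF replicate 2, and 1 was without either CTRL array.

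Some matrix and guidance genes were higher in gamma-ON, against 3.98% of all genes. CTRL lay nearer gamma-ON for 4 of the 5 called matrix genes and 5 of the 6 called guidance genes. Among all genes called higher, the share was 66.4%. FN1, which encodes fibronectin, stood at 12.39 and 12.34 in gamma-ON, 11.50 and 11.38 in gamma-OFF, and 12.68 and 12.40 in CTRL (0.93, SE 0.13, adjusted p = 0.0103). Beside it FBN2 (1.02) and FBN1 (0.82), which encode fibrillins, NID2 (0.81) of the basement membrane and FREM2 (0.63) were higher. That made 5 of the 8 measured matrix genes higher and 0 lower, with a median of 0.72. Of the 28 matrix genes listed, no collagen, laminin or integrin had a named row. Of 9 mesenchymal genes 3 were higher and 0 lower: SNAI2 (1.01), FN1 and VIM (0.64), and CTRL lay above both groups for all 3. The other rows of VIM differed by 0.36 and 0.93. PCDH10, a protocadherin gene, stood at 9.24 and 8.95 against 7.45 and 7.44 (1.65, SE 0.16, adjusted p = 0.0013). SLIT2, a ligand that repels axons, differed by 1.22 (SE 0.16), the ephrin gene EFNB2 by 0.96, the Eph receptor gene EPHA7 by 0.78 and the plexin gene PLXNA2 by 0.77. With FLRT3 that was 6 of 23 guidance and adhesion genes higher and 0 lower, with a median of 0.42. Other guidance genes that did not pass the test stood on the negative side, among them UNC5A (-0.30), DCC (-0.33) and CNTN1 (-0.58, adjusted p = 0.0656). CNTN1 was called lower in gamma-ON without gamma-OFF replicate 2 (adjusted p = 0.0406). Without either gamma-ON array, none of the matrix or mesenchymal genes and 2 of the guidance genes were called. Without gamma-OFF replicate 2, 1 matrix gene, 0 mesenchymal and 5 guidance genes were called higher, and without either CTRL array 4, 3 and 6.

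**Figure D3:**
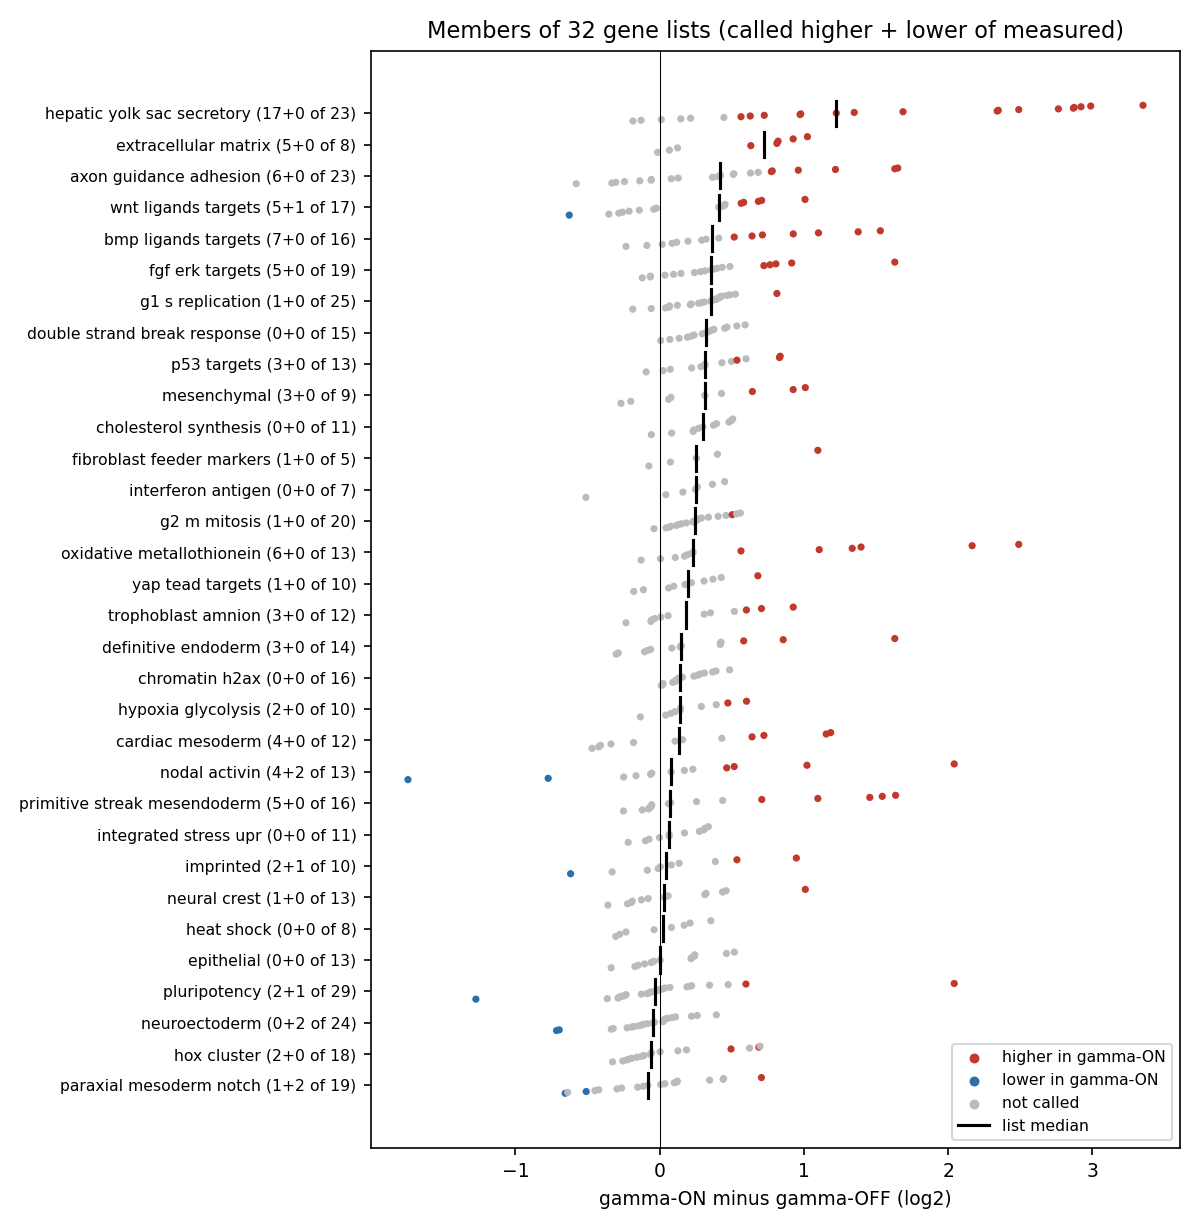
Difference between gamma-ON and gamma-OFF (log2, x axis) for each measured member of 32 gene lists, 1 point per gene and 1 row per list, ordered by the list median (vertical black bar). Red points are called higher in gamma-ON, blue called lower, grey not called. The liver and yolk sac list lies farthest right, with 17 of 23 members called higher.

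Metallothioneins bind zinc, copper and cadmium, and their genes are switched on by metals through the factor MTF1. They lie in a cluster on chromosome 16 and differ little in sequence, so that rows may share signal. MT1F stood at 9.65 and 9.57 in gamma-ON, 7.66 and 7.23 in gamma-OFF and 8.92 and 8.60 in CTRL, a 4.49-fold difference between gamma-ON and gamma-OFF (2.17, SE 0.17, adjusted p = 0.000357). MT2A stood at 9.42 and 9.42 against 8.21 and 7.83 (1.40, SE 0.16, adjusted p = 0.00387). MT1H stood at 7.93 and 7.44 against 6.61 and 6.08 (1.34, SE 0.21, adjusted p = 0.0155), and MT1G differed by 1.11 (SE 0.22). MT1X, in contrast, stood at 10.22 and 10.14 against 10.07 and 9.85 (0.22, adjusted p = 0.265), with CTRL above both at 10.90 and 11.09. MT1E (0.19) and MT1M (0.17) did not pass the test. In the list of metallothionein and oxidative stress genes, 6 of 13 members were higher and 0 lower, GSTA2 and GSTA1 included. Among all genes, 3.98% were higher and 2.02% lower. TXNRD1 (0.23), SRXN1 (0.11) and HMOX1 (0.01) did not pass the test. MT2A had an adjusted p of 0.0558 without gamma-ON replicate 1. MT1H had one of 0.166 without gamma-ON replicate 1 and of 0.0834 without gamma-OFF replicate 2, and MT1G one of 0.257 without gamma-ON replicate 1 and of 0.0967 without gamma-ON replicate 2.

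The windows before the starts of MT2A, MT1H and MT1X are shown because the first pair was called and MT1X was not, while all 3 hold several matches to the core of the metal response element, the site of MTF1. The letters searched were TGCGCNC and TGCACNC on both strands, which are in capitals below. The 250 bases are from RefSeq (GRCh38.p14), all on the plus strand, at chr16:56608334-56608583 for MT2A, chr16:56669564-56669813 for MT1H and chr16:56682220-56682469 for MT1X.
MT2A: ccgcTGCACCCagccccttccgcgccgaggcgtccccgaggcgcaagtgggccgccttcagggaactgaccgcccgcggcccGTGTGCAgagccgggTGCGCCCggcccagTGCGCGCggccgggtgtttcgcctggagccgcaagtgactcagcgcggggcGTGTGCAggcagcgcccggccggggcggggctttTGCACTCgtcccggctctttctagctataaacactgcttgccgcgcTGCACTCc
MT1H: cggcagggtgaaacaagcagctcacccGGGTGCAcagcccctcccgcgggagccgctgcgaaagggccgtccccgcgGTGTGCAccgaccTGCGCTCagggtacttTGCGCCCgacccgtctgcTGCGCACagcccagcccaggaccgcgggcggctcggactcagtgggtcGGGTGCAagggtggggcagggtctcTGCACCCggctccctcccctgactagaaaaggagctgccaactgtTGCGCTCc
MT1X: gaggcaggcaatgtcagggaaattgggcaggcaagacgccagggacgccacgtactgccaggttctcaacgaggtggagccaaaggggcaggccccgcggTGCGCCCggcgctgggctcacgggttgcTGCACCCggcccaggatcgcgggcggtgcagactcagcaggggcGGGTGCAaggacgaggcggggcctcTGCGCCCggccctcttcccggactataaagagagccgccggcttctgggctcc
There were 7 matches before MT2A, 8 before MT1H and 4 before MT1X. At least 1 match was present in 24.5% of 27305 windows of all genes, and 4 or more in 0.37%. The letters were chosen with the results known.

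Genes of the pathway that γH2A.X takes part in did not pass the test. Of 15 genes of the double-strand break response, 0 were called by limma, 9 had an unadjusted p under 0.05, and all 15 were positive. XRCC4, a factor of end joining, stood at 0.59 (SE 0.22, adjusted p = 0.103), TP53BP1, which binds chromatin at breaks, at 0.54 (SE 0.17, adjusted p = 0.084) and the kinase gene ATR at 0.45 (adjusted p = 0.0529). The list median was 0.32 and became 0.22 after each array was given the same median and SD. On XRCC4, gamma-OFF replicate 2 stood apart at 7.34, against 8.11 on replicate 1 and 8.40 and 8.23 in gamma-ON. Without gamma-OFF replicate 1 the adjusted p was 0.00767 for XRCC4, 0.0138 for TP53BP1 and 0.0377 for ATR, while without gamma-OFF replicate 2 it was 0.354, 0.294 and 0.125. Of 16 chromatin and histone chaperone genes 0 were called by limma, 4 had an unadjusted p under 0.05, all 16 were positive, and the median went from 0.14 to 0.01 with equal medians and SDs. Over all 14884 genes, 4910 had an unadjusted p under 0.05, and 52.88% of the differences were positive.

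Of 13 p53 targets, 3 were higher in gamma-ON and 0 lower. EDA2R stood at 8.55 and 8.46 in gamma-ON, 7.75 and 7.59 in gamma-OFF and 9.05 and 9.11 in CTRL (0.84, SE 0.12, adjusted p = 0.0103). TP53INP1 differed by 0.83 (SE 0.13) and SESN1 by 0.54, also with CTRL above both groups, while the stress cytokine gene GDF15 stood at 0.07 (adjusted p = 0.765). None was called without either gamma-ON array, and 7 of the 13 were called higher without gamma-OFF replicate 1, a fit that called 2544 genes higher. Among cell cycle genes, TYMS, the thymidylate synthase gene, was higher in gamma-ON by 0.81 (SE 0.12, adjusted p = 0.0103), as 1 of 25 genes of DNA replication, a share near the 3.98% of all genes called higher. KIF20A, a mitotic kinesin gene, was higher by 0.50 (adjusted p = 0.047), as 1 of 20 mitosis genes, again near that share. The replication list had 23 of 25 positive values and the mitosis list 19 of 20, against 52.88% of all genes. With equal medians and SDs the replication median fell from 0.35 to 0.12 and the mitosis median from 0.24 to 0.02. Of the 6 fits with an array left out, TYMS was called in 4 and KIF20A in only 1. Without gamma-OFF replicate 1, 14 replication and 8 mitosis genes were called higher, in a fit that called 17.1% of all genes higher.

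The other lineage lists had 1 to 3 called members each, against 3.98% of all genes higher and 2.02% lower. Of 24 neuroectoderm genes 0 were higher and 2 lower in gamma-ON, OTX1 (-0.70, SE 0.14) of the forebrain and DCX (-0.71, SE 0.16), the microtubule binding protein of young neurons. Of 19 paraxial mesoderm and Notch genes, HEY1 was higher (0.71) and RIPPLY2 (-0.65) and UNCX (-0.51), both of somite formation, were lower. HOXA2 (0.69) and HOXB5 (0.50) were higher among 18 HOX and CDX genes. Among 10 imprinted genes PLAGL1 (0.95, SE 0.15) and PEG10 (0.54) were higher and the noncoding RNA gene MEG3 (-0.62, SE 0.12) was lower. Without gamma-ON replicate 1, the adjusted p-values of these genes lay above the threshold: 0.243 for OTX1, 0.292 for DCX, 0.239 for HEY1, 0.248 for RIPPLY2, 0.278 for UNCX, 0.312 for HOXA2, 0.248 for HOXB5, 0.124 for PLAGL1, 0.282 for PEG10 and 0.166 for MEG3. They also lay above it without gamma-ON replicate 2, from 0.076 for HEY1 to 0.146 for HOXB5. Without gamma-OFF replicate 2 they ranged from 0.0505 for HEY1 to 0.15 for HOXA2. Among the remaining lists, SNAI2 was the 1 of 13 neural crest genes called, ANKRD1 (0.68) the 1 of 10 YAP targets, and BNIP3 (0.60) and NDRG1 (0.47) the 2 of 10 hypoxia genes, all higher in gamma-ON. Of the 6 fits with an array left out, SNAI2 and ANKRD1 were each called in 3, and BNIP3 and NDRG1 each in only 1. Lists of the integrated stress response (11 genes), heat shock (8), cholesterol synthesis (11), epithelial genes (13) and interferon genes (7) had 0 calls by limma. In these lists 3, 2, 7, 3 and 2 members had an unadjusted p under 0.05, against 4910 of all 14884 genes.

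The gene with the greatest difference was ZNF732, which encodes a zinc finger protein and lies near the end of the short arm of chromosome 4 (chr4:270675-305474). It stood at 8.60 and 8.55 in gamma-ON, 4.81 and 5.17 in gamma-OFF and 6.94 and 6.96 in CTRL, so the 3 groups were each apart from the others. The difference was 12-fold (3.58, SE 0.14, adjusted p = 7.25e-06). Chromosome 4 had the highest share of called genes, with 9.48% of 612 genes called, against 5.99% of all genes. Chromosomes 5 (9.2%), 18 (9.05%) and 13 (8.95%) were close to it. The median difference was 0.10 on chromosome 4 and 0.13 on chromosome 18. Other genes higher in gamma-ON whichever array was left out were PRTG, which encodes protogenin of the early embryo, at 10.62 and 10.62 against 8.33 and 8.53 (2.19, SE 0.14), HAVCR1 (2.27, SE 0.17), the peptide gene NTS (1.88, SE 0.17), TMEM88 (1.86, SE 0.12) and KITLG, the ligand of the receptor KIT (1.49, SE 0.17). BCRP3, a pseudogene, was called at 2.31 (SE 0.48), but its gamma-OFF arrays stood at 5.78 and 3.81 and its adjusted p was 0.26 without gamma-ON replicate 1, 0.106 without gamma-ON replicate 2 and 0.0546 without either CTRL array.

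Fewer genes were lower in gamma-ON, and most of them by less than 2-fold. CCDC152 was 7.15-fold higher in gamma-OFF, at 8.38 and 7.72 against 5.38 and 5.04 in gamma-ON and 4.51 and 4.79 in CTRL (-2.84, SE 0.22, adjusted p = 0.000323). It overlaps SELENOP, the selenoprotein P gene, on chromosome 5, so which of the overlapping genes the row measured is uncertain. CABYR, which encodes a calcium binding protein known from sperm tails, was 3.73-fold higher in gamma-OFF, at 7.60 and 7.82 against 5.90 and 5.73 (-1.90, SE 0.13, adjusted p = 0.000176), and CTRL stood with gamma-OFF at 7.30 and 7.36. CCDC152, CABYR, LEFTY2 and the miRNA precursor gene MIR4452 (-1.10, SE 0.12) were the 4 genes called lower whichever array was left out. GPC4, a glypican gene, stood at 10.78 and 10.67 against 11.76 and 11.74 (-1.02, SE 0.13, adjusted p = 0.00609). NPTX1, a neuronal pentraxin gene, stood at -0.99 (SE 0.13), the synaptotagmin gene SYT11 at -0.96 (SE 0.11) and the germline gene TDRD1 at -0.97 (SE 0.14). GRPR, the receptor of gastrin-releasing peptide, stood at -1.27 (SE 0.16) on its brighter row and at 0.69 on the other, so its rows disagree. Without gamma-ON replicate 1 the adjusted p was 0.0608 for GPC4, 0.066 for NPTX1 and SYT11, 0.136 for TDRD1 and 0.0608 for GRPR. Without gamma-ON replicate 2 it was 0.0649 for GPC4, 0.0686 for NPTX1, 0.076 for TDRD1 and 0.0622 for GRPR.

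The genes called lower differed in kind from those called higher. Of the 300 lower genes 58% were protein coding and 68 (22.7%) were miRNA precursor rows, whereas of the 592 higher genes 91.6% were protein coding and 12 (2.03%) were miRNA precursor rows. Over all genes the shares were 80.1% and 7.2%. The median level was 6.432 for the lower genes, 7.636 for the higher genes and 7.119 for all genes, and 214 of the 300 lower genes lay under the median of all genes. These level differences stand beside the narrower spread of levels on the gamma-OFF arrays, whose part in the calls was not tested. CTRL lay between gamma-ON and gamma-OFF for 70% of the called genes, against 41.7% of all genes.

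**Figure D4:**
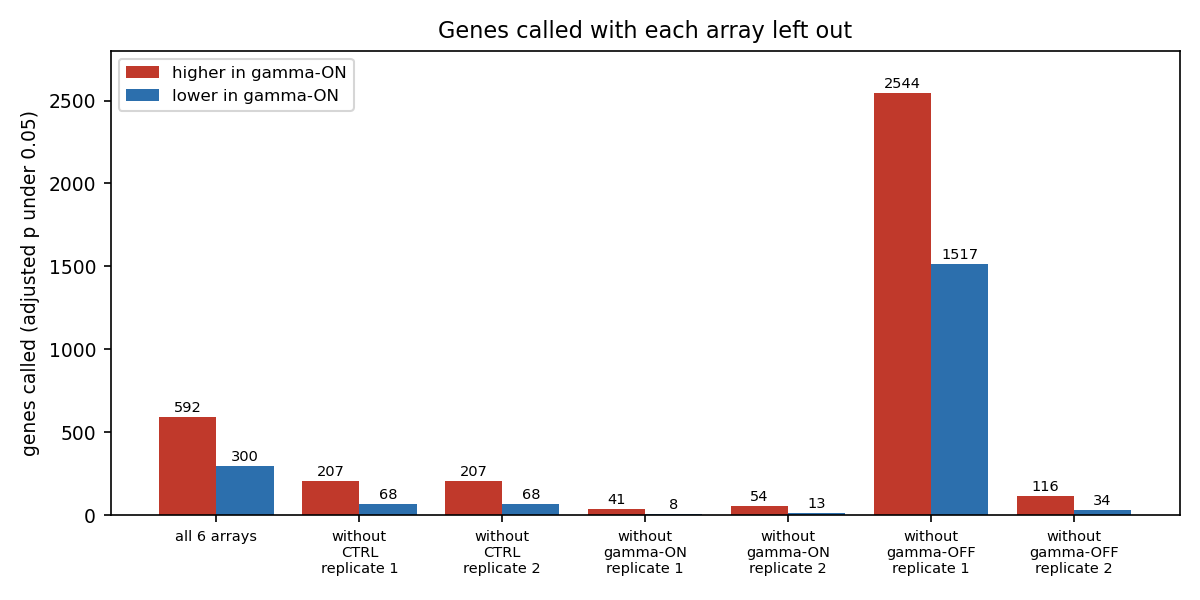
Number of genes called (y axis) in the fit of all 6 arrays and with each array left out in turn (x axis), red for higher and blue for lower in gamma-ON. The counts run from 41 and 8 without gamma-ON replicate 1 to 2544 and 1517 without gamma-OFF replicate 1, and higher calls outnumber lower calls in each fit.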

How the data were processed

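Total RNA of 6 samples was hybridised to Affymetrix human gene arrays, 1 array each. The deposited values are log2 levels per array row, made by the authors with RMA and Partek 6.6 per the submitters' processing notes. Of these steps the sources used here give neither order, options nor annotation. The number of arrays limits the precision.

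The platform annotation gave 16098 of 53617 rows 1 symbol, 0 rows several, and left 37519 unnamed here. All 16098 identifiers matched RefSeq (GRCh38.p14), and 0 symbols changed. Where a gene had several rows (779 genes), its brightest row on average over the arrays stood for it. Promoter windows are RefSeq's.

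Groups came from the sample descriptions. The test was limma's (version 3.58.1, lmFit and eBayes, R 4.3.3), the two-sided contrast gamma-ON minus gamma-OFF in 1 fit of 3 group means over all 6 arrays (3 residual and 6.05 prior degrees of freedom), with Benjamini-Hochberg adjustment over 14884 genes and calls at an adjusted p under 0.05. Every adjusted p is limma's, and folds are 2 to the power of the log2 difference. No exact test was run, because with 2 arrays on each side its smallest p is 0.333. The fit was tested on simulated data.

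The comparison, the 32 gene lists and the motifs were chosen with earlier results of these data known, so list counts are no independent evidence. Named genes are the 15 highest and 15 lowest called genes, leaving out uncharacterised loci and small RNA families, up to 6 called members per list, and POU5F1, NANOG, SOX2, MIXL1, NODAL, LEFTY1, LEFTY2 and AFP. Of these 99 the text gives a part. All other genes named were chosen after their values were seen. Alternatives varied the arrays, the spread model, array weights, scaling, the row per gene, dim genes, the threshold and a replicate term.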

Additional observations from a re-analysis of the deposited data

How the results depend on the processing

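All 111 called genes among the 158 followed by name kept their direction under each alternative. Signs turned for genes that were not called. With quantile normalization BMP7 became -0.14, HMOX1 -0.16, SRXN1 -0.067, GDF15 -0.071, SMAD2 -0.048, SMAD4 -0.10 and SOX2 -0.076. With equal medians and SDs BMP7 became -0.064, HMOX1 -0.082, GDF15 -0.00597, SMAD4 -0.17 and SOX2 -0.29. With 1 array left out BMP6 ranged from -0.11 to 0.28, BMP7 from -0.071 to 0.11, HMOX1 from -0.050 to 0.063, NOG from -0.034 to 0.43, APOH from -0.26 to 0.28, FOXH1 from -0.37 to 0.042, GDF15 from -0.12 to 0.27, GSC from -0.22 to 0.11, NANOG from -0.56 to 0.083, S100A4 from -0.010 to 0.16, SMAD4 from -0.050 to 0.21, SOX17 from -0.093 to 0.26, SOX2 from -0.051 to 0.10 and TBX6 from -0.14 to 0.034. The counts moved more. Against 892 calls (592 higher and 300 lower in gamma-ON, 86 of them list members), the 4 gamma-ON and gamma-OFF arrays alone gave 275 (207 and 68) and array weights 229 (182 and 47), with 53 list members. A trend in the spread gave 1628 (1145 and 483). Leaving out genes under the median level gave 1495 (1219 higher), quantile normalization 469 (277 and 192), equal medians and SDs 443 (262 and 181), and an adjusted p under 0.10 gave 3121 (1915 and 1206), with 149 list members. Leaving out 1 array gave 49 to 4061 calls, 41 to 2544 higher, 8 to 1517 lower and 22 to 167 list members. With an array left out, the lone array of its group was assumed to vary like the other groups. A lone CTRL array adds nothing to the spread, so both of those fits equal the fit without CTRL. Robust fitting (902) and the mean of all rows of a gene (926) stayed within 1.5 times.

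The fits shared calls with the 892 as follows: 270 with 4 arrays, 229 with array weights, 403 with quantile normalization and 404 with equal medians and SDs. Array weights were 1.24 for the gamma-ON and 0.544 for the gamma-OFF arrays. With the replicate block 871 genes were called (584 and 287), 743 of them shared. Replicate numbers did not pair the samples: correlations of same-numbered deviations were -0.0962, -0.0735 and 0.088. The causes of these shifts were not tested.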
